A study of Homo sapiens with 2 samples.

Results

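Cells of an epithelial sheet hold together through E-cadherin, desmosomes and tight junctions, and in an epithelial-mesenchymal transition this set gives way to N-cadherin, vimentin and fibronectin. Repressors of the ZEB and SNAI families bind short DNA words called E-boxes in the promoters of epithelial genes, and microRNAs of the miR-200 family in turn repress the ZEB messages. Carcinoma lines such as A549 often show both sides at once, with keratins beside vimentin. The switch was read here from 10 genes, chosen by name: CDH1, JUP, DSP, OCLN and TJP1 on the epithelial side, and CDH2, VIM, FN1, ZEB1 and SNAI2 on the mesenchymal side. Of these 10, 9 had a row under exactly that symbol among 12936 named genes. SNAI2, a repressor of CDH1, had no row and was not analysed here.

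RNA-seq libraries were made from A549, an established human lung adenocarcinoma line. The MYOCD knockdown library came from A549 cells labelled both as a knockdown and as MYOCD-/-, which are different things, and the sources used here do not say how the gene was targeted. The wild type library came from A549 cells of wild type genotype. The labels give both samples doxycycline for 72 h, whereas the design text has the wild type cells as untreated, so a difference between the libraries and an effect of doxycycline cannot be told apart if only the knockdown cells received it. Each group had 1 library, so no difference below has a replicate error or a test.

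The deposited values are RPKM, reads per kilobase of transcript and scaled by the mapped reads of the library, and no counts were given, so the depth is unknown. MYOCD, which encodes the coactivator myocardin, had 0.400 RPKM in the knockdown library, against 0.881 RPKM in the wild type library, both near the bottom of the table. In the deposited table the higher library of every locus had at least 0.652 RPKM, so a gene low in both libraries has no row. A gene named only in a row with other genes also counts here as having no row, so no row need not mean low. Of 10 epithelial marker genes, 8 had a row, summing to 4698 RPKM in the knockdown library against 4756 RPKM in the wild type library, nearly all of it from the keratins KRT7, KRT8 and KRT18. On a log2 scale after adding 1 RPKM, the mucin MUC1 was the lowest of these in the knockdown library relative to the wild type library (-0.35), and CLDN4 (0.06) and KRT7 (0.06) the highest. SFTPB and NKX2-1, the other genes among these 10, had no row. Fibroblast and muscle markers, of which 4 of 11 had a row, summed to 21.4 RPKM in the knockdown library against 17.6 RPKM in the wild type library. The higher sum was that of ACTA2, smooth muscle actin, with 16.9 RPKM in the knockdown library against 12.4 RPKM in the wild type library, while COL1A1, THY1 and MYH11 were lower, COL1A1 at 2.41 RPKM in the knockdown library against 2.76 RPKM in the wild type library. The fibroblast genes COL1A2, COL3A1, PDGFRA, PDGFRB, DCN and LUM had no row. Endothelial and leukocyte markers were represented by 1 of 9 genes, CD14. In a culture, fewer cells of a kind and less RNA per cell cannot be told apart.

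The E-boxes to which ZEB and SNAI proteins are known to bind are shown for JUP, OCLN, TJP1 and DSP, since they are the DNA side of the switch. The word CAGGTG, or CACCTG when read on the other strand, was searched in RefSeq promoter windows on GRCh38.p14, each running from 250 bases before to 50 bases after a transcript start. Windows were found for 8 of the members. None was available for CDH1 or SNAI2, so the promoter of CDH1 was not searched. The word occurred in 5 of 9 windows of JUP, OCLN, TJP1 and DSP (55.6%), in 2 of 11 windows of CDH2, VIM, FN1 and ZEB1 (18.2%), and in 20.6% of 35116 windows of all genes. These shares count windows and not genes. ZEB1 had 7 of the 11 and TJP1 had 4 of the 9, and windows of the same gene can overlap. In the lines below, given 5′ to 3′ on the strand of the gene, capitals mark the word.
JUP, chr17:41786007-41786036, minus strand: tggcccCACCTGccgagCAGGTGagcgcac
OCLN, chr5:69492502-69492531, plus strand: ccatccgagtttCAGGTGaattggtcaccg
OCLN, chr5:69492645-69492674, plus strand: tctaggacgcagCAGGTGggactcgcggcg
TJP1, chr15:29969120-29969149, minus strand: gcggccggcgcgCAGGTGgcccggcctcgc
DSP, chr6:7541481-7541510, plus strand: gggcggcgggcgCAGGTGgggaggggcggc
DSP, chr6:7541574-7541603, plus strand: gaagaaaccggcCAGGTGtggcctaggcgc
One window each of JUP, OCLN, DSP and ZEB1 held at least 2 of the words, as did 3.49% of all windows, and in JUP the pair lay within 30 bases. OCLN had 3 occurrences in all, the last at the end of a window and not shown. Among the mesenchymal members the word was found only in ZEB1, at 4 places in 2 of its 7 windows. A match says only that these letters are there.

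The reverse arm of the switch lies in the 3′ end of the ZEB1 message. The miR-200 family falls into 2 groups by seed, bases 2 to 8 of the mature RNA, which are in capitals in these RefSeq sequences.
hsa-miR-200b-3p: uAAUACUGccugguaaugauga
hsa-miR-200c-3p: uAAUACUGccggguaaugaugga
hsa-miR-429: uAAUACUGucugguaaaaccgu
hsa-miR-141-3p: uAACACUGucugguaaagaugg
hsa-miR-200a-3p: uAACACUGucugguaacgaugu
The seed matches, CAGTATT for the first group and CAGTGTT for the second, were searched on the transcript strand in the longest annotated 3′ UTR of each gene (GENCODE release 29, GRCh38). ZEB1 held 6 of the first and 3 of the second in 2549 bases. Of 2396 genes with a 3′ UTR of 0.8 to 1.2 times that length, 46.3% held at least 1 match, and ZEB1 was the only 1 with as many as 9. The following 4 of the 9 are the ones nearest the stop codon, with the match in capitals.
ZEB1, chr10:31527616-31527645, plus strand: gcattgttttatcttatCAGTATTatcact
ZEB1, chr10:31527710-31527739, plus strand: atatgctaaatccgcttCAGTATTttatta
ZEB1, chr10:31528029-31528058, plus strand: agcaaaatcatcagaatCAGTGTTtgtgat
ZEB1, chr10:31528139-31528168, plus strand: ctgtaagtgccatttctCAGTATTttcaag
FN1 held 2 matches in 1115 bases, a number reached by 83 of 2365 genes with a 3′ UTR of like length. OCLN held 2, a number reached by 473 of 1514 genes with a 3′ UTR of like length, and TJP1 held 1, reached by 1024 of 2492. None was found in CDH1, CDH2, VIM, JUP or DSP. The miR-200 genes MIR200A, MIR200B, MIR200C, MIR141 and MIR429 had no row of their own, so the microRNA side of this loop was not analysed here.

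N-cadherin and plakoglobin differed most, in opposite directions. CDH2, which encodes the cadherin of neurons and mesenchyme (chr18:27950966-28177446, minus strand, GENCODE release 29 on GRCh38), had 3.84 RPKM in the knockdown library, against 1.72 RPKM in the wild type library. E-cadherin did not move with it. CDH1, the adherens junction cadherin of epithelia (chr16:68737225-68835548, plus strand), had 22.5 RPKM in the knockdown library, against 23.8 RPKM in the wild type library. Annotated antisense genes lie inside both cadherin genes, with a sense-intronic gene inside CDH2 and pseudogenes inside CDH1. Reads of these may be among those of CDH2 and CDH1. JUP, or plakoglobin, which links cadherins to filaments in both desmosomes and adherens junctions, was the epithelial member that differed most, with 53.9 RPKM in the knockdown library against 78.6 RPKM in the wild type library. FN1, fibronectin, a matrix glycoprotein listed as a mesenchymal gene, was lower as well. The remaining 5 members differed by at most 1.15-fold, the difference of VIM.

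**Figure D1:**
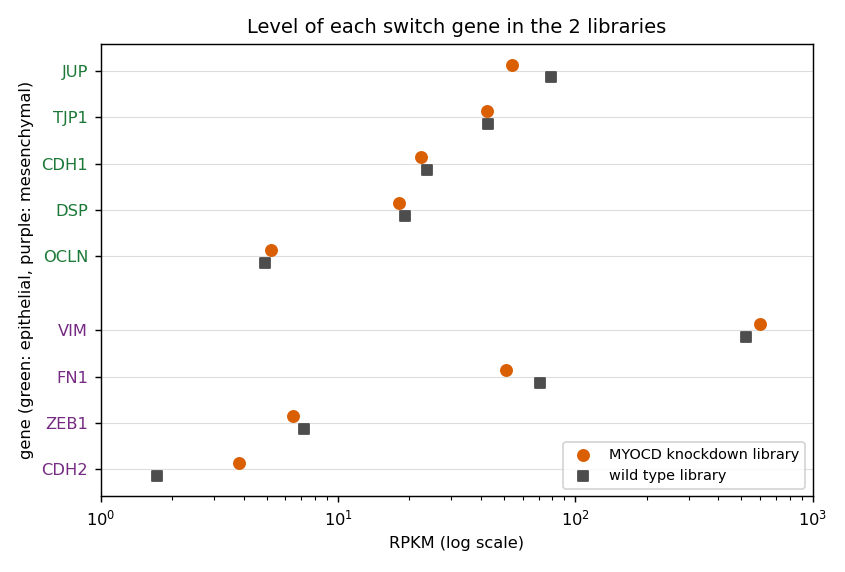
RPKM on a log axis for the 9 genes with a row, in the MYOCD knockdown library (circles) and the wild type library (squares), 1 library each and so with no error bars. CDH2 was the lowest of the 9 in both libraries and had the widest gap (3.84 RPKM in the knockdown library, 1.72 RPKM in the wild type library), and the 9 genes kept the same order of level in both.

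Differences are given on a log2 scale after adding 1 to each RPKM, as knockdown over wild type, a scale that makes the change of low genes look smaller. CDH2 differed by 0.83 on this scale, and by 1.16 (2.23-fold) with no pseudocount. It had the largest difference of the members on the scale used, but JUP differed more with a pseudocount of 5 (-0.51, against 0.39 for CDH2). With equal sums over all loci JUP was at -0.73 and CDH2 at 0.67, but that scaling put the median of all genes at -0.17. Relative to that median CDH2 was at 0.84 and JUP at -0.56. CDH2 was the only 1 of the 9 members past 1.5-fold higher, where 1.65% of 12158 named genes (those averaging 1 RPKM or more over the libraries) were past it. No member was past 1.5-fold lower, against 3.2% of those genes. No member was 2-fold higher or lower on this scale, against 0.65% and 0.724% of genes. A share of 1 in 9 is 1 gene, and nothing is read from it about the set.

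Low messages vary more between any pair of libraries, so CDH2 was also set beside genes of its own level. Among 2189 protein-coding genes alone at their locus, with no microRNA or small nucleolar RNA gene inside, and with a mean of 0.5 to 2 times that of CDH2, 2.79% had a difference of that size or more, up or down. For JUP, with a log2 difference of -0.54, the share was 2.40% of 1793 genes. FN1 had 51.2 RPKM in the knockdown library against 71.2 RPKM in the wild type library, a log2 difference of -0.47, and 3.71% of 1939 genes of like level differed by as much. Over all named genes averaging 1 RPKM or more, the shares were 2.06% for CDH2, 6.17% for JUP and 8.71% for FN1. These shares describe how common such differences were, and they are not p-values.

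**Figure D2:**
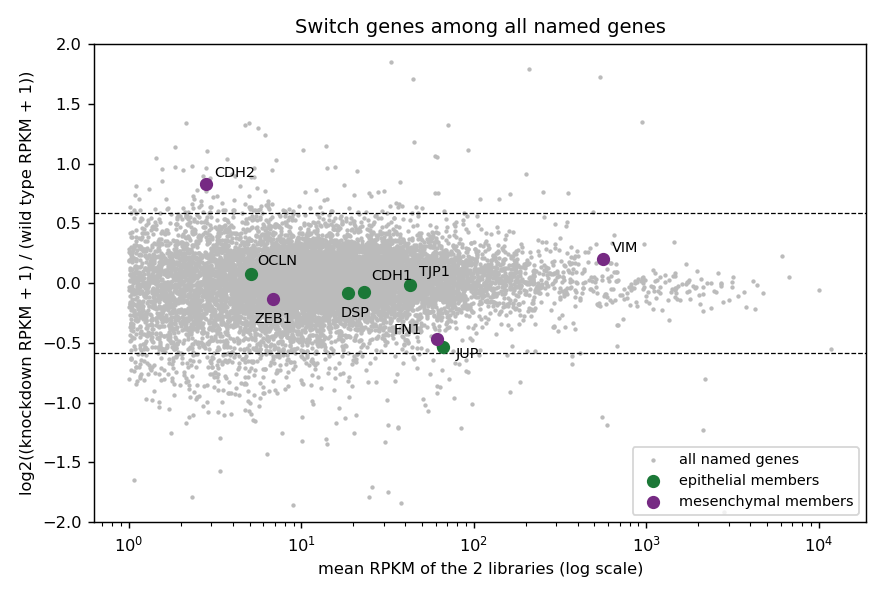
Log2 difference between the libraries against the mean RPKM (log axis) for 12158 named genes (grey), with the epithelial members in green and the mesenchymal members in purple. Dashed lines mark 1.5-fold, and 94 genes beyond 2 on the vertical axis are not drawn. CDH2 lies above the upper line at 0.83, while JUP (-0.54) and FN1 (-0.47) lie just inside the lower one.

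The order of levels was the same in both libraries. VIM, the intermediate filament protein vimentin (chr10:17228259-17237593, plus strand), was by far the most abundant, with 601 RPKM in the knockdown library against 523 RPKM in the wild type library. That placed it above 98.9% of named genes in the knockdown library and 98.8% in the wild type library. JUP, FN1, TJP1, CDH1 and DSP followed in that order, between 17.99 and 53.9 RPKM in the knockdown library and between 19.2 against 78.6 RPKM in the wild type library. ZEB1, OCLN and CDH2 were the lowest. With 1 library a group, no spread is known that would tell whether neighbours in this order differ.

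The cadherins can be set against each other within a library, where the scaling of the library has no part. CDH1 exceeded CDH2 by 5.85-fold in the knockdown library and by 13.8-fold in the wild type library. Put as a share, CDH2 made up 14.6% of the summed CDH1 and CDH2 RPKM in the knockdown library and 6.76% in the wild type library. The sum itself was 26.3 RPKM in the knockdown library against 25.5 RPKM in the wild type library. E-cadherin thus remained the more abundant of the pair in both, and the narrower ratio in the knockdown library lay mainly in CDH2.

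The partners of the cadherins at the adherens junction were close to level. CTNNB1, or beta-catenin, a relative of JUP that binds the same cadherin tail, had 77.5 RPKM in the knockdown library against 78.0 RPKM in the wild type library. JUP thus stood at 0.695 of the CTNNB1 level in the knockdown library and at 1.01 times it in the wild type library. CTNNA1, alpha-catenin, which ties the complex to actin, had 84.6 RPKM in the knockdown library against 80.1 RPKM in the wild type library. Of 11 adherens junction partners kept, 0 were past 1.5-fold in either direction and their median log2 difference was -0.0085, beside 0.011 over all 12158 genes. The lowest were NECTIN2 (-0.24), a cell adhesion receptor, and the actin linker VCL (-0.09), and the highest were CDH4 (0.20) and NECTIN3 (0.20).

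In the desmosome, JUP was lower while DSP was close to level and its partners went both ways. DSP, desmoplakin, which anchors keratin filaments to the plaque (chr6:7541575-7586717, plus strand), had 17.99 RPKM in the knockdown library against 19.2 RPKM in the wild type library, a log2 difference of -0.09. The ratio of JUP to DSP was 2.995 in the knockdown library and 4.10 in the wild type library. Of 10 desmosome partners kept, 6 were above 0 and 4 below, with a median of 0.26 that turned to -0.03 when only partners averaging 5 RPKM or more were taken, and 1 was past 1.5-fold lower. That gene was PERP, a membrane protein of desmosomes and a p53 target, with 67.2 RPKM in the knockdown library against 112 RPKM in the wild type library. The plakin PPL, periplakin, was at -0.58. The desmosomal cadherins lay on the other side: DSC2 had 2.998 RPKM in the knockdown library against 1.78 RPKM in the wild type library, and DSG2 had 39.2 RPKM in the knockdown library against 30.5 RPKM in the wild type library. PLEC, or plectin, which crosslinks intermediate filaments including vimentin, had 126 RPKM in the knockdown library against 101 RPKM in the wild type library.

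The tight junction members were close to level. TJP1, the scaffold protein ZO-1 (chr15:29699367-29968865, minus strand), had 42.5 RPKM in the knockdown library against 43.0 RPKM in the wild type library, a log2 difference of -0.02, and 94.2% of named genes differed by at least as much. OCLN, the membrane protein occludin (chr5:69492292-69558104, plus strand), had 5.22 RPKM in the knockdown library against 4.90 RPKM in the wild type library, a log2 difference of 0.08. This turned to -0.09 when the libraries were scaled to equal sums, where the median of all genes was -0.17. OCLN has a pseudogene copy, OCLNP1, so reads may be shared between them. Of 15 tight junction partners kept, 0 were past 1.5-fold higher and 1 lower, with a median of -0.03. The one was TJP3, the relative ZO-3, with 1.13 RPKM in the knockdown library against 2.85 RPKM in the wild type library. The claudins went both ways, with CLDN7 at -0.52 and CLDN12 at 0.52 (F11R, a junctional adhesion molecule, was next at 0.25), while CLDN1, the most abundant of those listed, had 71.0 RPKM in the knockdown library against 67.3 RPKM in the wild type library.

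Polarity and epithelial regulator genes averaging 1 RPKM or more held none past 1.5-fold. The 12 polarity genes had a median of -0.03 and ran from LLGL2 (-0.36) and LLGL1 (-0.23), basolateral polarity proteins, to CRB3 (0.13) and LIN7C (0.14). The 9 epithelial regulators kept had a median of 0.06. ELF3, an epithelial transcription factor, had 35.3 RPKM in the knockdown library against 48.0 RPKM in the wild type library, and KLF5 was at -0.33. LSR, a protein of tricellular junctions, and KLF4 were the highest, at 0.26 and 0.17.

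Among the repressors, ZEB1 (chr10:31318495-31529814, plus strand) had 6.43 RPKM in the knockdown library against 7.17 RPKM in the wild type library, a log2 difference of -0.14. Of named genes, 54.7% differed by at least as much. ZEB1-AS1, transcribed from the opposite strand and partly overlapping ZEB1, had 3.76 RPKM in the knockdown library against 4.34 RPKM in the wild type library. The sources used here do not say whether the counting used strand, so reads of the overlap cannot be assigned to either. SNAI1, a relative of SNAI2, had 3.54 RPKM in the knockdown library against 4.59 RPKM in the wild type library, and TWIST1, a helix-loop-helix inducer of the transition, had 2.35 RPKM in the knockdown library against 3.58 RPKM in the wild type library. Of 14 switch transcription factors and corepressors kept, 4 were above 0 and 10 below, with a median of -0.05. RCOR1, a corepressor partner of the demethylase KDM1A, was the only 1 past 1.5-fold, with 8.96 RPKM in the knockdown library against 15.0 RPKM in the wild type library. HMGA1, an architectural chromatin protein, and SOX9 were the highest, at 0.29 and 0.27. CTBP1 and CTBP2, corepressors that ZEB1 recruits, were at -0.02 and -0.0013.

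**Figure D3:**
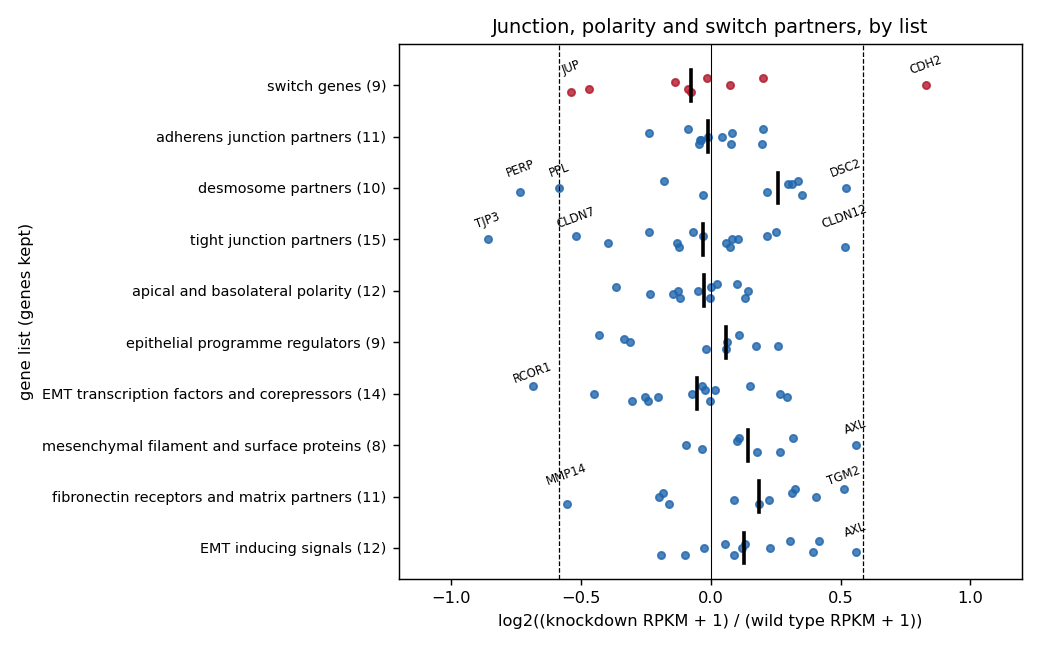
Log2 difference of each kept gene (points) and the median (black bar) for the switch genes and 9 lists of partner genes, with the number of genes in parentheses and dashed lines at 1.5-fold. Genes at least 0.5 from 0 are named. The members spread from -0.54 for JUP to 0.83 for CDH2, and the partners from -0.86 for TJP3 to 0.56 for AXL.

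Vimentin and fibronectin went opposite ways although both belong to the mesenchymal side. VIM was higher by 0.20 on the log2 scale, and 21.0% of 138 genes of like level differed by at least as much, as did 38.2% of all named genes kept. With equal sums over all loci VIM was at 0.0032, or at 0.17 relative to the median of all genes. VIM-AS1, an antisense gene, overlaps part of the locus, so its reads may be among those of VIM. Relative to KRT18, a keratin of simple epithelia, VIM stood at 0.357 in the knockdown library and at 0.294 in the wild type library. FN1 (chr2:215360440-215436172, minus strand) was lower, and so was its ratio to ITGB1, the beta chain of its main receptors, at 0.0761 in the knockdown library and 0.113 in the wild type library. Its receptor subunits were closer to level, with ITGA5 at 23.8 RPKM in the knockdown library against 26.7 RPKM in the wild type library, and ITGAV at 55.9 RPKM in the knockdown library against 64.3 RPKM in the wild type library.

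The other matrix and receptor genes went both ways. Of the 11 reported here, 7 were above 0 and 4 below (MMP14, ITGAV, ITGB5 and ITGA5), with a median of 0.19. SDC4, a syndecan that acts beside integrins in adhesion to fibronectin, had 61.5 RPKM in the knockdown library against 46.2 RPKM in the wild type library. TGM2, a transglutaminase that crosslinks fibronectin, had 93.1 RPKM in the knockdown library against 65.0 RPKM in the wild type library. MMP14, a membrane metalloprotease, was low in both, at 1.30 RPKM in the knockdown library against 2.37 RPKM in the wild type library. Mesenchymal surface and filament genes had a median of 0.14 over 8 genes, with 6 above 0. The receptor kinase AXL had 109 RPKM in the knockdown library against 73.5 RPKM in the wild type library, CD44, the hyaluronan receptor, was at 0.32, and LGALS1 and THY1 were at -0.10 and -0.03. Genes of inducing signals had a median of 0.13 over 12 genes, none past 1.5-fold, from TGFB1 (-0.19) and SMAD3 (-0.10) to the receptor kinases MET (0.42) and AXL. The only listed microRNA locus with a row was MIR34A, with 6.57 RPKM in the knockdown library against 5.72 RPKM in the wild type library.

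Across all 10 partner lists, 102 of the 150 genes reported here averaged 1 RPKM or more. Of these, 0 were past 1.5-fold higher and 3 past 1.5-fold lower, against 1.65% and 3.2% of all genes kept. The median of all genes kept was 0.011 in the reported setting, so genes on either side of 0 were common. Nothing is read from the counts above and below 0. List medians depend on the scaling: with equal sums over all loci the median of all genes was -0.17 and the desmosome median was 0.09. The medians above 0 of the matrix and receptor genes, mesenchymal surface genes, inducing signals and epithelial regulators turned to -0.0090, -0.05, -0.06 and -0.16. Equal sums over named loci, or equal medians of protein-coding loci, left each of these list medians within 0.1 of its reported value. The matrix and receptor median, for one, was 0.18 with the former and 0.20 with the latter. Summed RPKM over all loci was 1.173e+06 in the knockdown library and 1.0219e+06 in the wild type library. Equal sums over named loci left the median of all genes at 0.0048. The larger sum of the knockdown library thus lay mainly in loci with no gene name. List medians depend on the filter too: limited to genes averaging 5 RPKM or more, the median of all genes was 0.02, and those of the adherens junction, desmosome, tight junction and epithelial regulator lists turned to 0.04, -0.03, 0.07 and -0.16.

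As a single figure for the switch, the mean log2(RPKM + 1) of the 5 epithelial members minus that of the 4 mesenchymal members with a row was -0.50 in the knockdown library and -0.26 in the wild type library, a difference of -0.23. This rested on CDH2. Without it, as in the setting limited to members averaging 5 RPKM or more, the figure was -1.41 in the knockdown library and -1.42 in the wild type library, a difference of 0.0066. The members of each side therefore did not shift together. Of the epithelial 5, 1 was higher (OCLN, which turned lower with equal sums but was then at 0.08 relative to the median of all genes) and 4 were lower. All of these except JUP were close to level. At least as large a difference was seen in 73.6% of named genes kept for OCLN, 73.1% for CDH1, 70.0% for DSP and 94.2% for TJP1. Of the mesenchymal 4, 2 were higher and 2 lower.

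**Figure D4:**
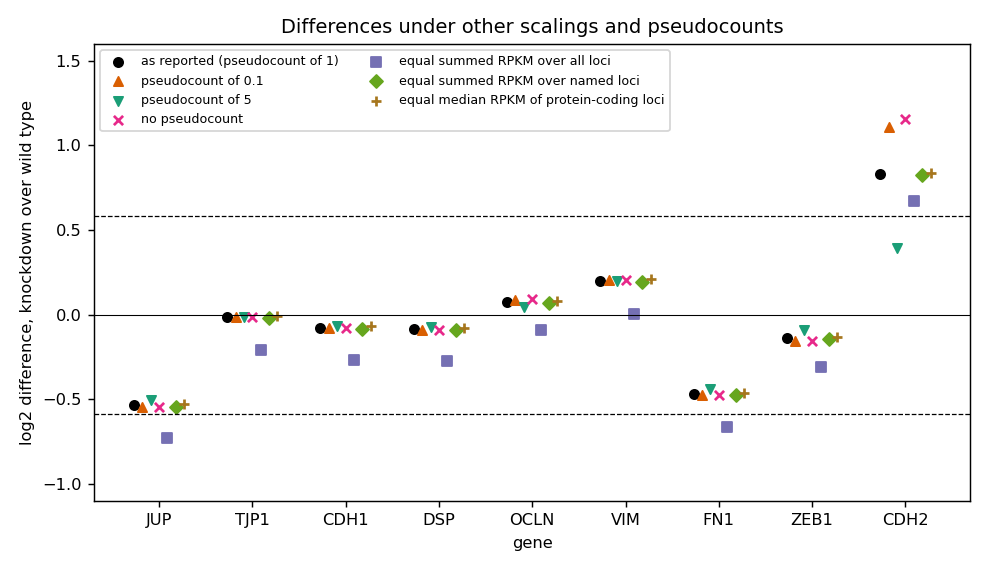
Log2 difference of each member under the reported setting (black) and 6 other pseudocounts or scalings, with dashed lines at 1.5-fold. CDH2 ranges from 0.39 with a pseudocount of 5 to 1.16 with none. Scaling to equal sums over all loci (squares) brings JUP to -0.73 and FN1 to -0.66, with the median of all genes at -0.17.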

How the data were processed

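The study deposited 1 table of RPKM values, computed by the authors before deposit, with 1 column per library for 14952 loci. Per the submitters' processing notes, the tools were TopHat2 2.0.10 and Cufflinks 2.2.1. Those notes list a human build, GRCh38.p12, beside BDGP5, which is of the fruit fly, with no role for either. The sources used here name neither the annotation nor the filters. Loci with no gene name (12.8%) were left out, 102 names on several lines were summed, and genes averaging 1 RPKM or more were compared. A row naming several genes was kept as 1 entry under its joint name. Adding such rows to each gene they name gave 12576 genes kept and left every member difference unchanged. It put the adherens junction median at 0.02 and that of inducing signals at 0.12. Older symbols were matched through a RefSeq gene table only where an older name belonged to 1 gene. With 1 library a group there was no test, and sizes of 1.5-fold and 2-fold on log2(RPKM + 1) were used for counts. One listed partner gene is not reported here and stands in no list or count of partners. The members and lists were chosen with earlier results of these data known. Named genes are the members, MYOCD and the 2 genes at either end of each list by log2 difference. Other genes are named for their role and were chosen after their values were seen. Positions came from GENCODE release 29, and promoter and microRNA sequences from RefSeq. Calculations used Python 3.11.15, numpy 2.4.6 and pandas 2.3.3.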

Additional observations from a re-analysis of the deposited data

How the results depend on the processing

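With 9 alternative settings, of which the one with no pseudocount was chosen after seeing the data, every member kept the sign of its difference except OCLN, which turned to -0.09 with equal sums over all loci. CDH2 is left out by a minimum mean of 5 RPKM. Scaling to equal sums over all loci lowered the median of all genes to -0.17 and of the members to -0.27. Relative to the median of all genes, CDH2 was at 0.84, VIM at 0.17, OCLN at 0.08, FN1 at -0.50 and JUP at -0.56. This scaling put 2 members, JUP and FN1, past 1.5-fold lower. Of all 12067 genes kept with it, 6.47% were past that line, against 3.2% in the reported setting. The number past 1.5-fold higher was 0 with a pseudocount of 5 (0.798% of all genes) and 0 with a minimum mean of 5 RPKM (1.48%). The balance of the sides was -0.14 with that pseudocount and 0.0066 with that minimum. CDH2 passed 2-fold, making 1 member, with a pseudocount of 0.1 and with none (1 in each), where 0.913% and 0.596% of all genes were 2-fold higher. Partner genes past 1.5-fold higher numbered 1 with a pseudocount of 0.1 (2.84% of all genes), 1 with no filter (1.65%) and 1 with no pseudocount (2.62%). Those past 1.5-fold lower numbered 7 with a pseudocount of 0.1 (5.06% of all genes) and 1 with a pseudocount of 5 (1.03%). They numbered 8 with equal sums over all loci (6.47%) and 8 with no pseudocount (5.12%). The cause was not tested. No paired analysis was possible because each group had 1 library. RPKM without counts allow no interval, and low genes such as CDH2 and OCLN are limited most.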
